A study of Mus musculus with 8 samples.

Results

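Mtmr12 (ENSMUSG00000039458) was followed through 4 lists of m6A peaks and through the input counts of 4 libraries from mouse spermatogenic cells. It was chosen by its fold enrichments, which are among the 3 highest of both knockout lists, so that its folds and ranks are descriptions and carry no test. It is 1 of 53465 genes in the count table and 1 of 8733 genes with a peak in any list, and it holds 6 of the 35697 listed peaks. The cells came from testes of 12-week-old C57BL/6 mice, either wild type (WT) or Alkbh5-/- (KO), and the sample titles call the 2 cell fractions PA and RO; the series title speaks of pachytene spermatocytes and round spermatids. Each combination of genotype and fraction has 1 input library of fragmented total RNA and 1 library of the fragments pulled down with an antibody against m6A, 8 samples in all. The labels state neither how the fractions were separated nor how many animals entered a library. Each group has 1 library, so none of the differences could be set against replicates.

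N6-methyladenosine (m6A) is a methyl mark that a writer complex places on adenosines of RNA, often near stop codons and in long exons, and that the demethylase encoded by Alkbh5 removes. Mtmr12, also known as 3-PAP, belongs to the myotubularins, a family of phosphatases that act on the endosomal lipid PI3P. It is a member without catalytic activity and serves as a partner subunit of active relatives such as Mtm1 and Mtmr2. Loss of the relatives Mtmr2 or Sbf1 is known to impair sperm formation in mice.

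Total counts of the 4 input libraries lay between 9921365 (KO PA) and 13147239 (WT PA). Markers of both stages were present in both fractions. The 5 round spermatid markers that could be named (Acrv1, Tnp2, Prm2, Acr and Tssk1) were higher in RO than in PA in both genotypes. Their summed level in CPM (counts made comparable between libraries by a scaling factor for each) was 203 in WT PA and 362 in WT RO, against 349 and 621 in the KO libraries of the same fractions. Between genotypes these markers went both ways: 3 of 5 were higher and 2 of 5 lower in KO in each fraction, with Acrv1 and Acr the lower ones (Acrv1 in PA −0.09 on the log2 scale, but 0.20 with library totals). Markers could be named only where the gene has a peak, so others looked for were not followed. The 5 pachytene markers that could be named were mostly higher, not lower, in RO. Their sum was 2401 CPM in WT PA and 2207 in WT RO, 1495 in KO PA and 1711 in KO RO, and 4 of 5 in WT and 3 of 5 in KO were higher in RO. Most of each sum was Sycp2, with 1777 CPM in WT PA and 826 in KO PA, while 3 of the 5 pachytene markers were higher in KO in each fraction, and a further one, Sycp1, in PA with library totals (0.20 against −0.09). Markers of other testis cells were present in every library, with 78 counts or more for both Leydig cell genes (Cyp11a1 and Hsd3b1) and 76 or more for each of 3 Sertoli cell genes (Sox9, Wt1 and Clu). The sums over the named markers lay between 84.3 and 170 CPM for endothelium (3 genes), 143 and 285 for peritubular muscle (1 gene), 23.5 and 60.4 for spermatogonia (3 genes) and 2.13 and 21.5 for macrophages (1 gene), and no marker was at 0. The names of the lists were compared with the counts of genes that have a peak in 1 list only. Such genes had their highest median level in the matching library for 3 of the lists, but the genes of the KO PA list had it in KO RO. Results that set the KO PA list against the KO RO list therefore rest on list names that the counts do not settle. The names of the input libraries come from the sample titles, and this check does not concern them. Alkbh5 itself was not analysed here.

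All 6 Mtmr12 peaks lay at the 3′ end of the gene on the + strand of chromosome 15. In RefSeq (GRCm38.p6, the assembly that mm10 corresponds to, the build named in the submitters' processing notes) the gene spans 12204970 to 12272240, a length of 67271 bases. The fold enrichment, p-value and class of each peak below are those of the authors' deposited table for its list, and positions count from 1.

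The WT PA list held 1 peak, from 12269883 to 12270212, a single block of 330 bases with a fold of 249 and a log10 p-value of −73.8. The KO PA list held 1 peak as well, from 12266730 to 12270242, with a fold of 319 and a log10 p-value of −119. It joined a block of 39 bases, 12266730 to 12266768, to a block of 741 bases, 12269502 to 12270242, across a gap in the exonic sequence. KO PA thus had the longest Mtmr12 peak, 780 exonic bases, and WT PA the gene's smallest covered length.

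In both RO lists the same stretch was divided into 2 peaks. The upstream peak of WT RO had blocks of 9 bases (12266760 to 12266768) and 382 bases (12269502 to 12269883), with a fold of 32.3. The upstream peak of KO RO had blocks of 69 bases (12266700 to 12266768) and 382 bases (12269502 to 12269883), with a fold of 12.5. The downstream peak ran from 12269942 to 12270182 in WT RO, 241 bases with a fold of 61.9, and from 12269972 to 12270242 in KO RO, 271 bases with a fold of 381. The inner ends of the block pairs, 12266768 and 12269502, were identical in the 3 peaks that have such pairs. Only the outer ends differed, and the second block of the upstream peak was identical in both RO lists.

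**Figure D1:**
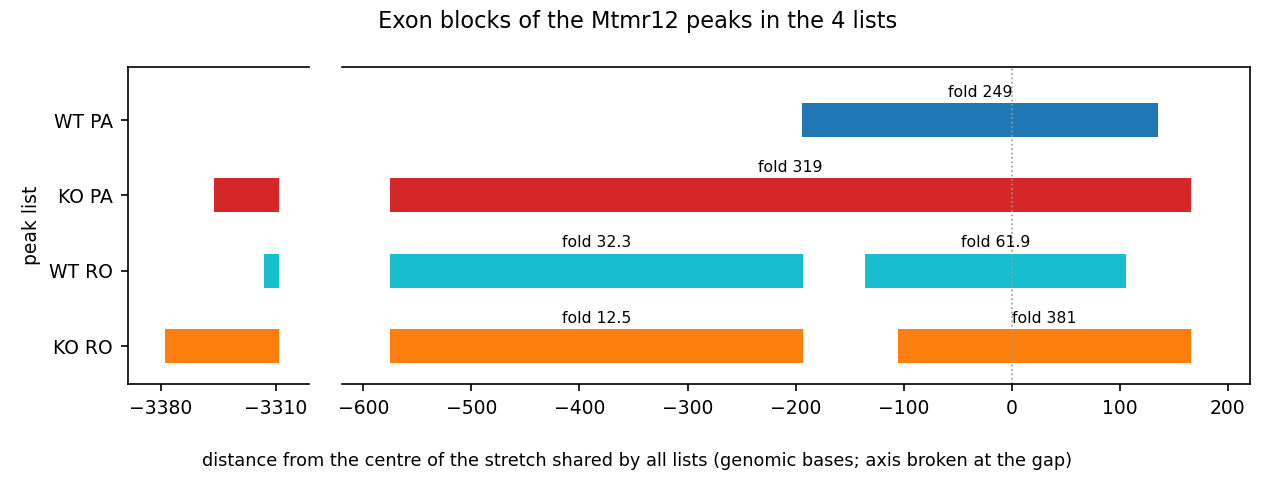
Exon blocks of the 6 Mtmr12 peaks in the 4 lists, by distance in genomic bases from the centre of the 211-base stretch that every list covers; the axis is broken at the gap between the blocks, and the numbers are the authors' folds. The downstream stretch is present in all 4 rows, and the upstream stretch in all rows except WT PA.

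A run of 211 bases, 12269972 to 12270182, was covered in every list. It ended 2058 bases before the RefSeq 3′ end of the gene. Together the lists covered 810 exonic bases, of which the PA lists held 40.7% (WT) and 96.3% (KO), and the RO lists 78.0% (WT) and 89.1% (KO). The upstream part accounted for most of this difference: 390 bases were covered by KO PA, WT RO and KO RO but not by WT PA. Only 60 bases were covered by both KO lists and by neither WT list. As a share of the bases covered by either list, the bases covered by both were 85.4% for KO PA and KO RO, 81.0% for KO PA and WT RO, 80.1% for KO RO and WT RO, and 29.9% to 42.3% for WT PA with each other list.

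At a minimum overlap of 1 base, every Mtmr12 peak had a counterpart in the list of the other genotype, 1 of 1 in WT PA and KO PA and 2 of 2 in WT RO and KO RO. The WT PA peak lay wholly within the KO PA peak but made up 42.3% of it. Under a reciprocal overlap of 50% the PA lists therefore shared 0 peaks, while the RO lists still shared 2 of 2. The WT PA peak touched the upstream peaks of WT RO and KO RO by a single base each, and it overlapped both downstream peaks by 241 bases.

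Sharing of this kind was common. Of the genes with a peak in any list, 3007 (34.4%) had one in all 4 lists, and 2625 (30.1%) had bases covered by all 4. Among genes within 2 times the CPM of Mtmr12, a peak was listed for 41.3% (WT) and 57.2% (KO) in PA and for 52.5% (WT) and 51.8% (KO) in RO, and 35.7% of those within 2 times its mean CPM had a peak in all 4. The median of the bases covered by all 4 lists was 241 over the 2625 genes, and 43.2% of these genes had fewer than Mtmr12.

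The class given to the same stretch differed between lists. The downstream peak was classed as 3′ untranslated region in KO RO and as exon in the other lists, although 87.6% of the WT RO downstream peak was covered by the KO RO one. The class exon was given to 5 of the 6 Mtmr12 peaks. In protein-coding genes as a whole it was given to 9.98% of the peaks in WT PA and to 9.71% (WT) and 9.86% (KO) in the RO lists. Overlapping peaks of one gene had different classes in 4.39% of 5599 pairs between WT RO and KO RO, and in 3.54% of 6181 pairs between WT PA and KO PA. Peaks of over 1 block, which Mtmr12 had in 3 of the 4 lists, made up 13.8% and 13.4% of the WT lists (PA and RO) and 21.2% and 16.1% of the KO lists. By the midpoint of their genomic span, all 6 Mtmr12 peaks lay between 94.1% and 96.8% of the way along the gene. For the peaks of over 1 block this midpoint falls in the gap between the blocks, upstream of most of their bases. By the same midpoints, the last 5% of the gene held 19.8% of the placed peaks in WT PA and 22.9% in KO RO. These were the lowest and highest shares of the 4 lists.

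Folds were ranked only within a list, since each list comes from its own pair of libraries. The highest Mtmr12 fold had rank 3 of 9931 peaks in KO PA and rank 2 of 8846 in KO RO. It had rank 13 of 7502 in WT PA and rank 1077 of 9418 in WT RO. Both KO ranks are what the gene was chosen for. In WT RO 88.3% of the peaks had a lower fold than its downstream peak and 74.4% a lower fold than its upstream peak. The upstream peak of KO RO had rank 4275 of 8846, with 51.3% of the peaks below it. Against the median fold of its list, the highest Mtmr12 fold was 21.3 and 24.5 times as large in PA (WT and KO) and 31.5 times in KO RO. In WT RO the value 61.9 stood against a list median of 15.1.

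**Figure D2:**
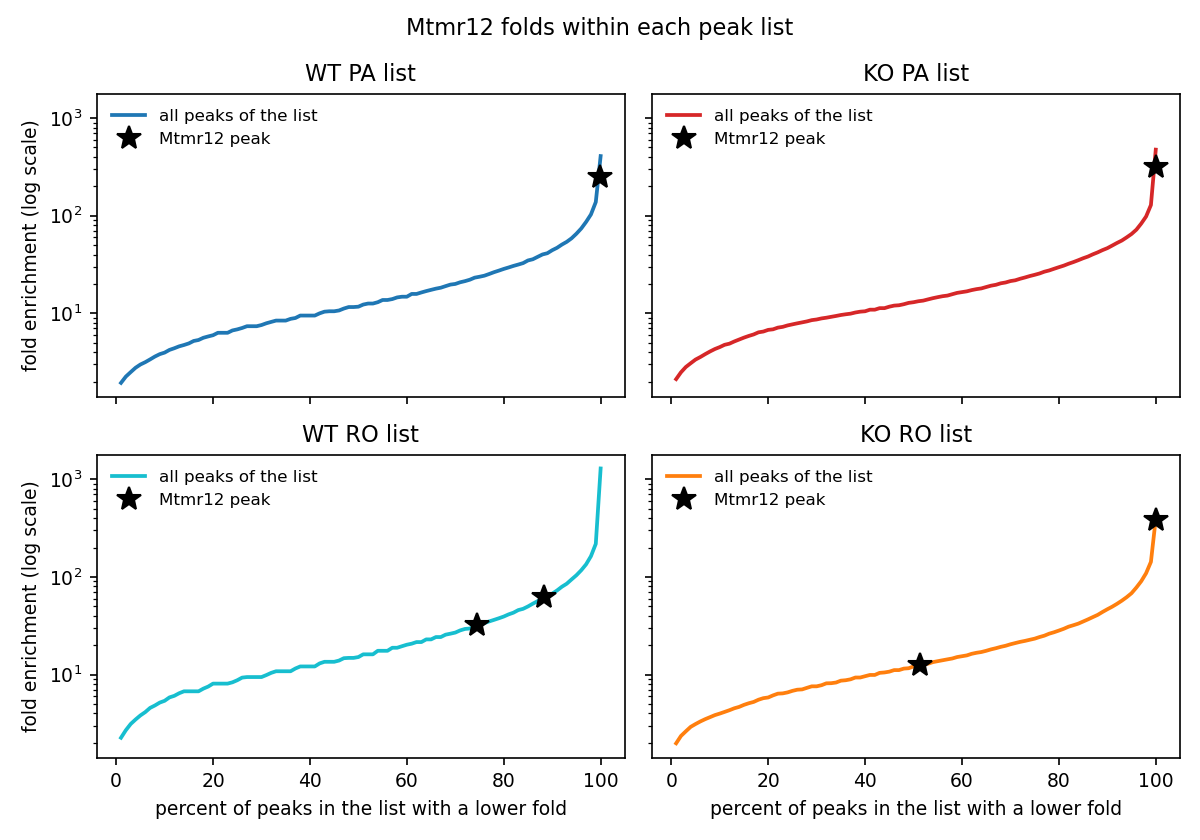
Fold enrichment of all peaks of a list (line, log axis) against the percent of peaks with a lower fold, with the Mtmr12 peaks as stars, 1 panel per list. Both PA lists have a star at the top end of the line, KO RO has 1 there and 1 at 51.3%, and WT RO has stars at 88.3% and 74.4%.

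The limit of the rule separated close values. Around Mtmr12 (319) the KO PA folds in the authors' deposited table were 475 for Dmxl2, 401 for Foxn3, 314 for Cep97 and 285 for Rreb1. Around Mtmr12 (381) the KO RO folds in the authors' deposited table were 396 for Ppp1r2-ps3, 370 for Celsr2, 344 for Setd1b and 340 for Tnrc18. In the WT lists, ranks 1 to 5 ran from 408 (Togaram1) to 323 (Sik3) in WT PA and from 1290 (Tnrc6c) to 517 (Setd5) in WT RO, with Aff4, Tcf20 and Ankrd11, and Ttc4, Tiparp and Pih1d3, between them. By p-value Mtmr12 stood lower, at rank 470 in KO PA, 670 in KO RO and 978 in WT PA. In WT RO the p-value rank was 3014 for the downstream peak and 1934 for the upstream one.

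Within the RO lists the 2 Mtmr12 peaks could be compared with each other, since they share a pair of libraries. In WT RO the downstream fold was 1.92 times the upstream one, and the upstream peak had the smaller p-value (log10 p −32.2 against −16.7). In KO RO the downstream fold was 30.5 times the upstream one, and the downstream peak had the smaller p-value (−140 against −18.2). Among the genes with 2 peaks, the ratio of the higher to the lower fold had a median of 2.21 in WT RO (1260 genes) and 2.24 in KO RO (1086 genes). The Mtmr12 ratio exceeded that of 41.7% of these genes in WT RO. In KO RO it exceeded that of 99.3%, a value that contains the fold that the rule used. The reads behind each interval were not analysed here, so that the intervals of these folds are unknown.

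The WT RO rank was set beside other genes that are as high in the KO lists, a group chosen after its values were seen. The highest fold of 16 genes, Mtmr12 included, with peaks in all 4 lists was at or above the 99th percentile in both KO lists. Their WT RO percentile had a median of 97.9 and a range of 86.0 to 99.7, and 1 of the 16 genes was below Mtmr12. Their WT PA percentile had a median of 97.0 and a lowest value of 69.2, against 99.8 for Mtmr12. The genes with the highest lowest percentile over the 4 lists were Secisbp2l (99.01), Frs2 (98.8), Ssh2 (98.7), Camk2g (98.7) and Celsr2 (98.6), and by this measure Mtmr12 had rank 171 of 3007, set by WT RO. In Mtmr12 the WT RO percentile lay 11.5 points below the lowest of the other 3 lists. A drop at least as large was found for 16.5% of the 3007 genes. Both KO percentiles of Mtmr12 were fixed by the rule, so its rank of 171 and this share are descriptions only.

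Input counts give the level of the transcript in the unselected RNA. In bulk samples such as these, fewer cells of a type and less RNA per cell cannot be told apart. In PA, Mtmr12 had 1048 counts in the WT library and 1204 in the KO library, and in RO 1587 and 1320. After scaling with TMM factors, the PA levels were 89.3 CPM for WT (exact Poisson 95% interval 84.0 to 94.9) and 111 CPM for KO (105 to 118). The RO levels were 138 CPM for WT (131 to 145) and 121 CPM for KO (114 to 127). The order was therefore WT PA, KO PA, KO RO and WT RO, and the intervals of the neighbours KO PA and KO RO overlapped. These intervals cover counting error only.

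The stage difference in WT was the largest of the 4 comparisons. The log2 ratio RO over PA was 0.62 in WT (exact binomial 95% interval 0.51 to 0.74, 1.54-fold higher in RO) and 0.11 in KO (0.00092 to 0.23). The log2 ratio KO over WT was 0.32 in PA (0.20 to 0.44, 1.25-fold higher in KO) and −0.19 in RO (−0.30 to −0.088, 1.14-fold lower in KO). All 4 ratios come from the same 4 counts and are not independent of one another. Scaling by library totals gave 0.61 for PA, where it moved the median of all genes tested from 0.04 to 0.35, and −0.014 for RO, where it moved that median from 0.04 to 0.22. With the names of the KO input libraries exchanged, the stage ratio in KO was −0.11, and the genotype ratio was 0.43 for PA and −0.31 for RO. As named, KO PA and KO RO had round spermatid marker sums of 349 and 621 CPM and Leydig sums of 40.0 and 16.7. Their pachytene sums were 1495 and 1711. An exchange of these names was not tested.

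None of the 4 ratios reached 2-fold. Beside genes with a like count, 3 of them lay within 1 robust SD of the median, and RO over PA in WT lay farther out, above 86.9% of these genes. Of the genes that reached a CPM of 1 in one of the compared libraries, 43.7% of 24331 genes differed at least 2-fold between KO and WT in PA, 42.1% of 24763 in RO, 40.2% of 23979 between RO and PA in WT and 32.7% of 24806 in KO. Among genes with a summed count within 2 times that of Mtmr12 these shares were 13.5%, 14.4%, 8.26% and 1.55%. The median log2 ratio over these genes was −0.13 for KO over WT in PA, −0.16 in RO, −0.04 for RO over PA in WT and −0.01 in KO. The robust SD of the log2 ratio over these genes was 0.63 for KO over WT in PA, 0.60 in RO, 0.48 for RO over PA in WT and 0.36 in KO. A ratio at least as far from 0 as that of Mtmr12 was found for 61.9%, 73.4%, 24.5% and 75.5% of them.

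**Figure D3:**
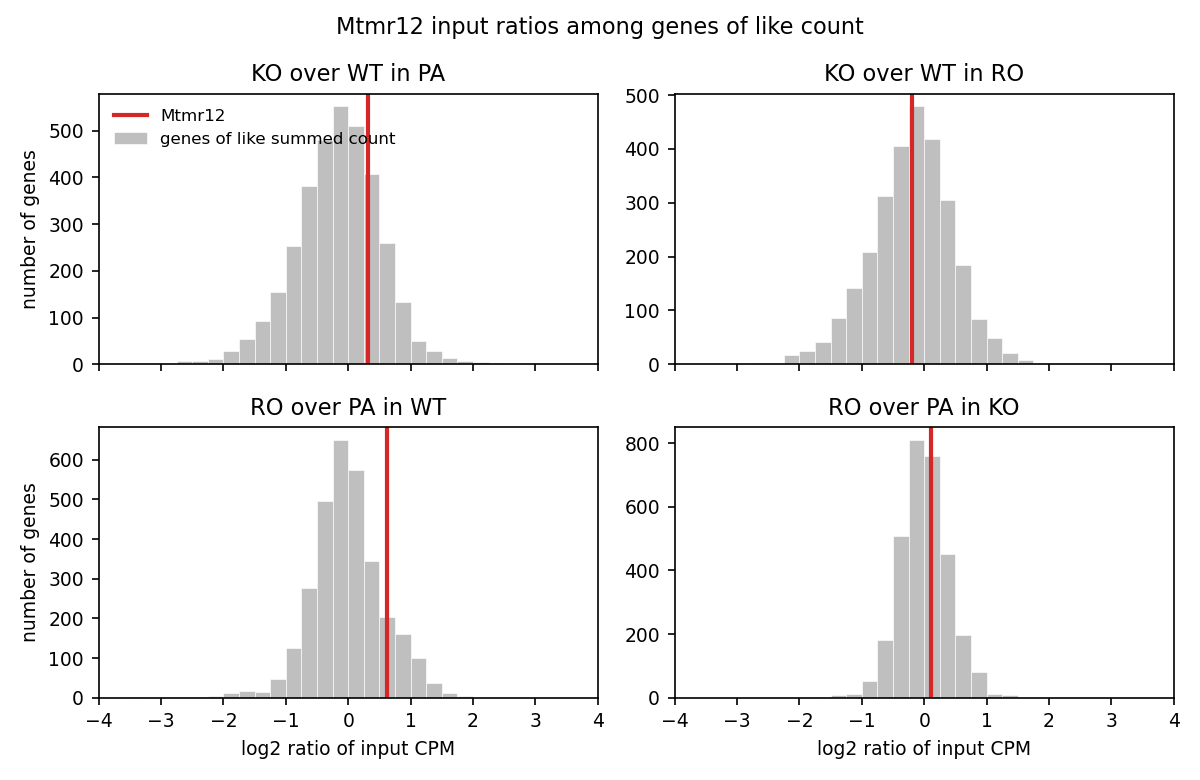
Log2 ratio of input CPM in the 4 comparisons for genes with a summed count within 2 times that of Mtmr12 (grey bars, number of genes in bins of 0.25), with Mtmr12 as a red line. The line stands at 0.32, −0.19, 0.62 and 0.11, and farthest from 0 for RO over PA in WT.

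The round spermatid markers named above also lay higher in RO, with median log2 ratios of 0.74 in WT and 0.61 in KO. The 2 Leydig cell markers were lower in RO, with medians of −1.74 (WT) and −1.26 (KO). The 3 Sertoli cell markers had medians of −0.31 and −0.65, but Sox9 was higher in RO in KO (0.38). Elongating spermatid medians were 1.26 (WT) and 0.91 (KO), and the macrophage marker had 1.61 and 0.80. Pachytene medians were 0.09 and 0.17. Medians for endothelium (−0.49 and 0.15) and spermatogonia (−0.62 and 0.50) differed in sign between genotypes. The peritubular muscle marker was lower in RO in both genotypes. Between genotypes, the sums of 2 elongating spermatid markers were 52.3 (WT) and 205 (KO) CPM in PA and 129 (WT) and 388 (KO) CPM in RO, and the Leydig sums were 136 (WT) and 40.0 (KO) in PA and 41.5 (WT) and 16.7 (KO) in RO. The part of these cells in the Mtmr12 ratios was not tested.

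By the distance between their levels over the 4 libraries, each gene centred on its own mean, the genes most like Mtmr12 among 6356 with a symbol and a mean CPM of at least 10 were Rptor, Wdr90 and Vps13b. The root mean square distance was 0.039 for Rptor, 0.041 for Wdr90 and 0.042 for Vps13b on the log2 scale. The median over all genes compared was 0.44. These genes were picked as the nearest, so distances below that median follow from the choice. Rptor, the scaffold of the growth-regulating kinase complex mTORC1, had 1742 (WT) and 1921 (KO) counts in PA and 2468 (WT) and 2056 (KO) in RO. Their peaks were not alike: Rptor had 3 peaks in each KO list and 0 in each WT list, Wdr90 had 1 in every list except WT PA, and Vps13b, a lipid transport protein of the Golgi, had 2 in WT PA and 3 in each other list.

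Of the 15 myotubularin genes looked for, 7 had a symbol in the peak lists and could be followed, since genes are named there only where they have a peak. The others were Mtm1, Mtmr1, Mtmr2, Mtmr7, Mtmr8, Mtmr9, Mtmr14 and Sbf1, which were not analysed here. Peaks were listed for 5 of the 7 genes in each WT list, for 7 in KO PA and for 6 in KO RO. Mtmr12, Mtmr3, Mtmr4, Mtmr10 and Sbf2 had a peak in all 4 lists, as did 34.4% of the genes with a peak in any list. The symbol itself requires a peak, so these counts cannot be read against all genes.

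Among the active phosphatases of the family, Mtmr3 and Mtmr4 carry a FYVE domain, which binds PI3P. Mtmr3 had 2 regions of peaks in coding sequence on chromosome 11, 4487320 to 4487889 and 4488069 to 4488579, both present in every list. The first region had folds of 14.8 and 65.4 in PA (WT and KO) and 84.8 in WT RO, and was divided into peaks of 6.60 and 9.13 in KO RO. The fold of the second was 9.49 and 13.5 in the WT lists (PA and RO) and 21.3 and 26.2 in the KO lists. The median fold over all peaks was 11.7 and 15.1 in the WT lists and 13 and 12.1 in the KO lists. Since each list has its own pair of libraries, folds of the family genes, here and below, can be read only within a list. Like Mtmr12, Mtmr3 thus had a stretch listed as 1 peak in KO PA and as 2 in KO RO.

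Mtmr4 also had 2 regions in coding sequence on chromosome 11, 87610934 to 87611354 in every list and 87611953 to 87612223 in every list except WT RO. The fold of the first was 140 (rank 73) and 41.7 in the WT lists of PA and RO, and 59.4 and 11.3 in the KO lists. In KO RO the second region, at 12.8, had the higher fold, whereas the first was higher in both PA lists, with the second at 7.66 in WT PA and 4.20 in KO PA. Mtmr6, a phosphatase without a FYVE domain, had 1 peak in each KO list and 0 in the WT lists. It was the same junction-spanning interval in coding sequence both times, chromosome 14, 60290758 to 60292082, 2 blocks with 151 exonic bases, and its folds were among the lowest of their lists, 3.38 in KO PA (rank 9404) and 3.79 in KO RO (rank 8059).

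Like Mtmr12, the remaining members lack catalytic activity. Sbf2, a partner of Mtmr2 with a DENN domain that acts on Rab GTPases, had a region in the 3′ untranslated region on chromosome 7, 110308583 to 110309332, in every list. Its fold was 70.6 and 191 in the WT lists (PA and RO) and 23.3 in KO PA, and KO RO divided it into peaks of 60.9 and 14.0. Sbf2 thus had the highest family fold in WT RO (rank 137 of 9418), where Mtmr12 had its lowest rank. Mtmr10 had a region on chromosome 7, 64337663 to 64338052, in every list, with folds of 69.6 (WT) and 18.8 (KO) in PA and 14.8 (WT) and 17.2 (KO) in RO, and a second peak 539 bases before the RefSeq 3′ end in WT RO alone, with a fold of 53.8. Mtmr11 had 1 peak, in KO PA, with a fold of 7.52 and 121 bases.

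**Figure D4:**
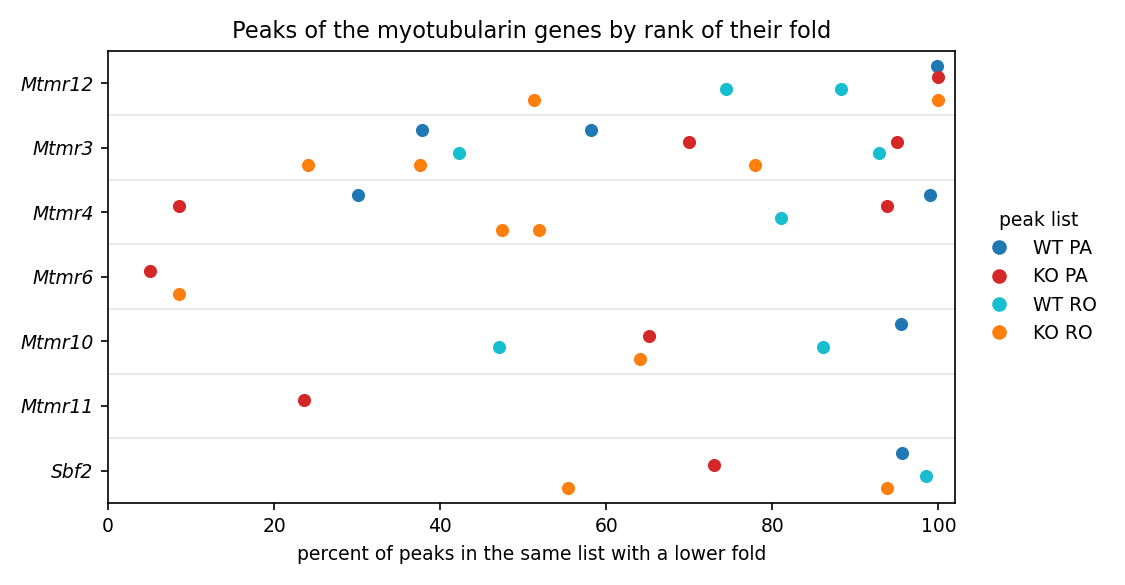
Every peak of the 7 myotubularin genes as a point, by the percent of peaks in the same list with a lower fold, coloured by list. Mtmr12 has points near 100 in WT PA, KO PA and KO RO, and the Mtmr6 peaks lie under 10.

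The input counts of the other 6 genes differed among the libraries in several patterns. Sbf2 had 4963 and 4565 counts in the WT libraries (PA and RO) and 2831 and 2656 in the KO libraries. Its log2 ratio KO over WT was −0.69 for PA (−0.76 to −0.63) and −0.71 for RO (−0.78 to −0.64). Mtmr3 had 1382 (WT) and 1917 (KO) counts in PA and 1622 (WT) and 1391 (KO) in RO, and its log2 genotype ratio was 0.59 for PA and −0.15 for RO, the latter 0.03 with library totals. Mtmr10 had 313 (WT) and 327 (KO) counts in PA and 142 (WT) and 248 (KO) in RO, and was lowest in WT RO, the library with its additional peak.

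Mtmr4 had 846 and 1005 counts in the WT libraries (PA and RO) and 746 and 692 in the KO libraries, and Mtmr6 had 994 and 944 in WT and 733 and 840 in KO. Mtmr6 was thus not higher in the KO libraries, in which its peak was listed, although its log2 ratio KO over WT in RO, −0.10, was 0.08 with library totals. Mtmr11 had few counts, 39 (WT) and 6 (KO) in PA and 26 (WT) and 48 (KO) in RO. Its only peak was in the list of the library with the fewest counts.

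**Figure D5:**
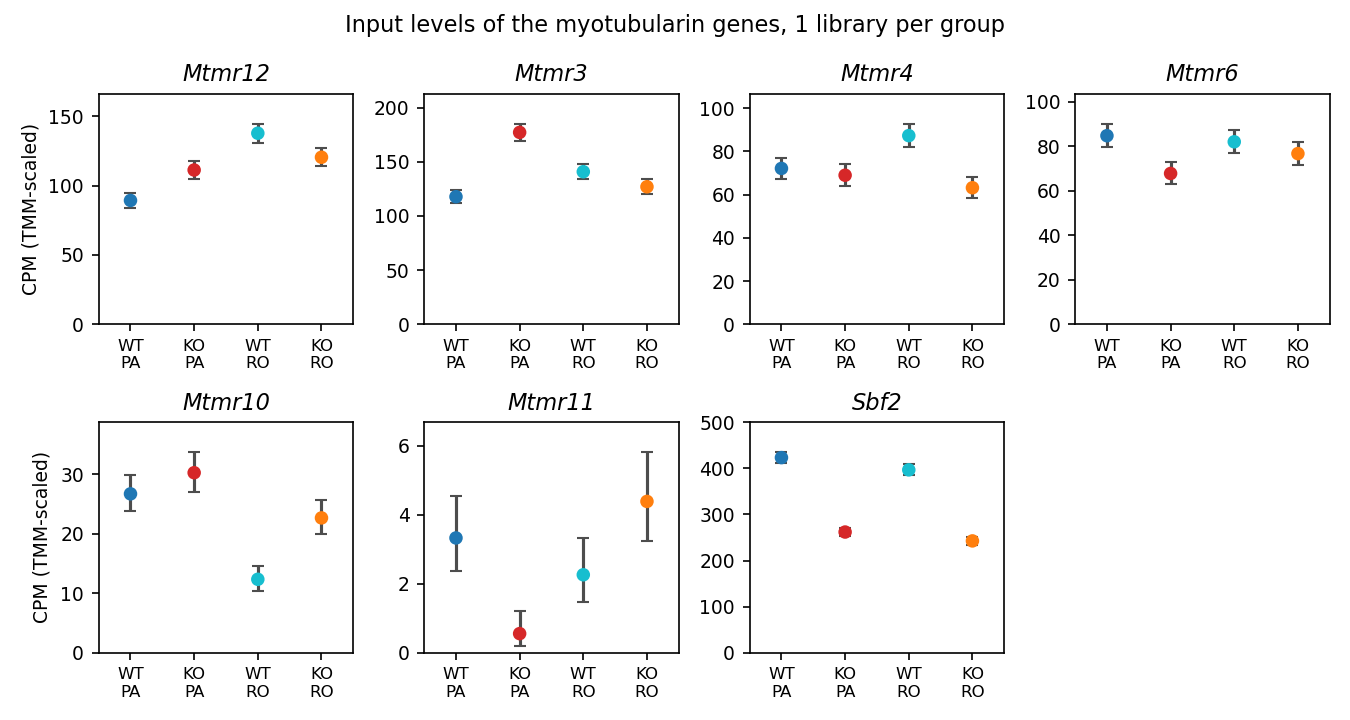
Input level in TMM-scaled CPM of the 7 myotubularin genes, 1 point per library, with exact Poisson 95% intervals of counting error; each panel has its own axis from 0. Mtmr12 ranges from 89.3 CPM in WT PA to 138 in WT RO, Sbf2 is lower in both KO libraries, and Mtmr11 is under 5 CPM in all 4.

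Of the 7 family genes, 1 was past 2-fold between KO and WT in PA and 0 in RO. The background, not matched to the family by count, was 43.7% of all genes in PA and 42.1% in RO. In PA, 19.9% of all genes were past 2-fold lower in KO. Among genes with a summed count within 2 times that of Mtmr12, 13.5% were past 2-fold in PA and 14.4% in RO. The gene in PA was Mtmr11, lower in KO, with a log2 ratio of −2.26 (−4.11 to −1.33). With library totals, Mtmr10 (1.04) and Mtmr11 (1.08) passed in RO. The family's median log2 ratio was −0.06 in PA, against 0.04 over all genes tested, and −0.15 in RO, also against 0.04; with library totals both medians were above 0, at 0.22 and 0.03. Between RO and PA, Mtmr10 was past 2-fold lower in WT (−1.10), as 18.7% of all genes were, while 21.6% were higher. Mtmr11 was past 2-fold higher in KO (2.64), as 17.5% of all genes were.

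Lipid kinases that make PI3P or, as Pikfyve does, phosphorylate it further were followed together with their partners, and 7 of 12 had a symbol. Of these, 0 of 7 passed 2-fold between KO and WT in PA and 1 of 7 in RO, against 43.7% and 42.1% of all genes. Those shares were not matched to the list by count. The gene in RO was Pik3c2b, a class II lipid kinase (73 counts in WT RO, 279 in KO RO, log2 ratio 1.98). Its log2 ratio in PA was 0.19. The other extremes were Pik3c2a (0.23) and, at the low end, Becn1 (−0.63) and Rubcn (−0.43) in PA, and Vac14 (0.69), Rubcn (−0.95) and Becn1 (−0.08, but 0.09 with library totals) in RO. Becn1 and Rubcn encode an activating and an inhibiting partner of the class III PI3P kinase, and Vac14 is a scaffold of the kinase Pikfyve. The list's median was 0.11 in PA and 0.28 in RO. A peak in all 4 lists was found for 4 of the 7 genes, against 34.4% of all genes with a peak in any list. Here and in the lists below, a symbol requires a peak, and that share was not matched by level.

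Of 17 proteins that bind PI3P, 13 had a symbol. Zfyve9, an endosomal FYVE protein that presents Smads to their receptor, was past 2-fold higher in KO in both fractions, with 350 (WT) and 648 (KO) counts in PA and 276 (WT) and 684 (KO) in RO (log2 ratios 1.001 and 1.37). It was 1 of 13 in PA, where 23.8% of all genes were past 2-fold higher in KO, and 1 of 13 in RO, where 23% were. Here too, the background was not matched to the list by count. Wdr45, an autophagy factor, was the 1 gene past 2-fold lower in RO (81 and 26 counts, −1.50), where 19% of all genes were. Plekhf2 was second highest in PA (0.88, but 1.17 and thus past 2-fold with library totals), and Ankfy1 in RO (0.61). Wipi2 and Eea1 were the lowest in PA, at −0.21 and −0.10, both above 0 with library totals (0.08 and 0.18), and Wipi2 was second lowest in RO (−0.53). The list's median log2 ratio was 0.20 for PA and −0.15 for RO, the latter 0.03 with library totals. A peak in all 4 lists was found for 6 of the 13 genes, against 34.4% of all genes with a peak in any list.

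Of 13 other phosphoinositide phosphatases, 7 had a symbol. Inpp5e, a phosphatase of the primary cilium, was past 2-fold lower in KO in both fractions, with 500 (WT) and 196 (KO) counts in PA and 611 (WT) and 253 (KO) in RO (log2 ratios −1.23 and −1.19). With library totals it was not past 2-fold in PA. Inpp5f was past 2-fold higher in RO (1.12) and the highest in PA (0.61). Inppl1 was second lowest in both fractions (−0.94 and −0.63), and Synj2 second highest in PA (0.19). Past 2-fold were thus 1 of 7 genes for PA and 2 of 7 for RO (3 of 7 with library totals). The background, not matched to the list by count, was 43.7% and 42.1% of all genes. The list's median log2 ratio was −0.06 (0.22 with library totals) and −0.37. A peak in all 4 lists was found for 4 of the 7 genes, against 34.4% of all genes with a peak in any list.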

How the data were processed

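Methylated RNA immunoprecipitation sequencing was applied to fragments of 100 to 200 nt, per the labels' protocols. The submitters' processing notes name cutadapt 2.5, HISAT2 2.1.0, HOMER 4.10.4 and mm10, without roles; the peak caller and the counter are not given in the sources used here. The authors deposited a table of raw counts for the 4 input libraries and 4 peak lists with a fold enrichment, a p-value and log10 values of it and of its false discovery rate. List names alone assigned lists to groups.

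TMM factors from edgeR 4.0.16 scaled the counts to CPM, and log2 ratios used a prior count of 2. Ratios were kept for genes reaching a CPM of 1 in one of the compared libraries. Comparisons set single libraries against each other and carry no test. A model with genotype and fraction as additive terms over the 4 libraries was not fitted. Intervals are exact and cover counting error only. Overlaps used exon blocks on the same strand, at least 1 base. Python 3.11.15 with pandas 2.3.3 and scipy 1.17.1 was used, and the ratio script was tested on simulated data.

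Alternatives were library totals, DESeq2 1.42.0 size factors, a prior count of 0.5, other filters and other overlaps. Named were Mtmr12, its family, ranks 1 to 5 of each list, the extreme ratios of 3 related gene lists, and the genes nearest in pattern or highest in all lists. The members and lists were chosen with earlier results of these data known. Symbols came from the peak lists. One gene that this rule names is not reported here. Sequences of the peaks were not used here.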

Additional observations from a re-analysis of the deposited data

Results flagged for a closer look

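The log2 ratio KO over WT of Mtmr12 was 0.32 in PA and −0.19 in RO, opposite directions with counting intervals that exclude 0. Mtmr3 showed the same, with 0.59 in PA and −0.15 in RO, and also opposite stage ratios RO over PA, 0.26 in WT and −0.48 in KO. Mtmr11 had −2.26 in PA and 0.90 in RO. With 1 library per group these differences between the cell fractions or genotypes were not tested. With library totals the RO ratio was −0.014 for Mtmr12 and 0.03 for Mtmr3. Genes with a summed count like that of Mtmr12 had a median KO over WT ratio of −0.13 in PA and −0.16 in RO. Mtmr12 lay above 77.3% of them in PA and 47.3% in RO, so its RO ratio was near their median.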

How the results depend on the processing

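Of 64 alternative values for 24 results, 52 stayed within counting error or, for counts, within 1.5 times. With library totals, KO over WT for Mtmr12 was 0.61 in PA and −0.014 in RO. With the names of the KO input libraries exchanged, an alternative added after the data were seen, it was −0.31 in RO, and RO over PA in KO turned to −0.11. At a CPM of at least 10, the genes past 2-fold numbered 3315 of 12575 for KO over WT in PA, 3094 of 12567 in RO, 2593 of 12254 for RO over PA in WT and 1353 of 12470 in KO. A reciprocal overlap of 50% left 0 shared Mtmr12 peaks in WT PA and 0 in KO PA. The WT RO percentile of Mtmr12 was 86.5 when peaks at a false discovery rate of 0.05 or above were left out and 83.6 with one peak per gene. The cause was not tested. No Mtmr12 peak was lost at a false discovery rate under 0.05 or a fold of at least 5. No analysis with a replicate block was run, since the labels give no replicate numbers. The depth of the immunoprecipitated libraries and the reads in each peak are unknown here, which leaves the folds without intervals.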
